A study of Mus musculus with 22 samples.

Results

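Skeletal muscle genes were followed in the thymus through 10 transcripts that are best known from muscle fibres and their precursors. Myog, Chrna1, Actc1 and Myh3 were grouped as genes of embryonic or regenerating muscle. Acta1, Ckm, Mylpf, Tnnt3 and Myl1 were grouped as genes of fast adult fibres, and Des is made in all muscle. These 10 genes were picked by name and not by a rule on measured values, but with earlier results of these data known. They are 10 of the 34585 entries of each deposited count table. Their rows were read in 22 libraries of bulk tissue. Thymus and cerebrum had 4 libraries of each genotype, and cerebellum had 2 of Tol and 4 of WT mice. Tol mice were heterozygous for a transgene that encodes a chain of scrambled reporter protein fragments under the ubiquitous CAG promoter, placed downstream of Col1a1 in C57BL/6J embryonic stem cells by cassette exchange, and WT mice were their wild-type littermates on the same C57BL/6 background. The labels give neither the sex nor the age of the sequenced mice, and the methods of the study give 1 age range, of young adults, for all its animals. No muscle was sampled, so the levels below have no muscle reference. The questions were how much of each transcript the thymus held, whether embryonic or adult genes prevailed, and whether Tol and WT thymi differed.

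The thymus is the organ in which T cells mature. Its medullary epithelial cells are known to transcribe many genes of other tissues, with Aire as a leading regulator, and it is also known to hold rare muscle-like cells called thymic myoid cells. Skeletal muscle is built in steps. Myogenic factors of the MyoD family commit precursors, embryonic isoforms of actin, myosin and the acetylcholine receptor are used first, and adult isoforms replace them in mature fibres. Fast and slow fibres then use different myosins, troponins and metabolic enzymes.

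The start regions of 4 members are shown because these genes stood on opposite sides in the comparison of organs below, Mylpf and Des being higher and Acta1 and Myh3 lower in WT thymus than in WT cerebrum. Each is the 250 bases before the gene's start as RefSeq places it on GRCm38.p6, written 5′ to 3′ on the gene's strand. Capitals mark CAGCTG, an E-box of the kind that MyoD family factors bind, TATAAA, and the CArG motif of serum response factor.
Mylpf, chr7:127211358-127211607, plus strand: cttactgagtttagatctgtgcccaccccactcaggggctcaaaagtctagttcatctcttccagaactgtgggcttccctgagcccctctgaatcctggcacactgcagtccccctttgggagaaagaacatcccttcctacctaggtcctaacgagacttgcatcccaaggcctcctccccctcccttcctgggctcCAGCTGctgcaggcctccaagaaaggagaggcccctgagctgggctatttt
Des, chr1:75360042-75360291, plus strand: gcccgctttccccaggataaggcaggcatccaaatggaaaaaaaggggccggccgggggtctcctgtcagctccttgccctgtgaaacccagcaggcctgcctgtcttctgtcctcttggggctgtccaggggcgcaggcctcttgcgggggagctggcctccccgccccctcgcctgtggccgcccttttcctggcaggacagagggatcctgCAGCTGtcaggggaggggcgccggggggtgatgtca
Acta1, chr8:123894776-123895025, minus strand: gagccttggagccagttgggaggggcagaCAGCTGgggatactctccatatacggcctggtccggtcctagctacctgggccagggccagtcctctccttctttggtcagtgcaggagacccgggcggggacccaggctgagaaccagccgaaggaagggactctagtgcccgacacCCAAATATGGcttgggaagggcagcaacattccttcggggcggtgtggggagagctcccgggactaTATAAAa
Myh3, chr11:67078050-67078299, plus strand: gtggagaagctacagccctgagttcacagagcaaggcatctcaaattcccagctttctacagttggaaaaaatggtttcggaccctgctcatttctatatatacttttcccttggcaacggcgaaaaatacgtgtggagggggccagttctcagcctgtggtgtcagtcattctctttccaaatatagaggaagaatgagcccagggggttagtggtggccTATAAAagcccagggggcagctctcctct
Motifs were searched on both strands in the sequences of 9 members. CAGCTG lay in 6 of them, against 13% of the 32851 mouse start regions in the same table, and the wider E-box CANNTG, which includes CAGCTG, lay in 8, against 66.2%. TATAAA lay in 3 members (12.4% of all), the CArG motif in 2 (1.47% of all) and the MEF2 motif in none (2.92% of all). The MEF2 motif was searched only as YTAWWWWTAR, where Y is C or T, W is A or T and R is A or G. Stretches that depart from this pattern were not counted, so MEF2 sites of other spelling could be present. Of the members shown, CAGCTG occurred once in Mylpf, Des and Acta1 and not in Myh3, so these letters were present on both sides of the organ comparison.

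Library totals ranged from 14543698 to 34776973 counts, and from 16319117 to 34776973 in thymus. Fewer than 3 counts were taken as below detection, which in thymus corresponds to 0.0876 to 0.186 CPM, the count divided by the scaled library total and set to a common size. The transgene had 448 to 1023 counts in the Tol thymi and 0 to 1 in the WT thymi. Its counts in the brain libraries also matched their genotype labels. The T cell gene Cd3e had 8765 to 17429 counts in each thymus and at most 13 in any brain library, and Snap25 of neurons had 14 to 68 counts in thymus against 43074 or more in brain. Among thymi, leaving out Tol 1 raised the number of genes called between genotypes from 16 to 2978, and results that rest on this library are given with and without it. Among cerebella, both Tol libraries stood apart in ways described below.

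All 10 members had counts in the thymus, but at very different levels. Mylpf, the regulatory light chain of fast myosin, and Des, the muscle intermediate filament desmin, had 146 to 687 counts in each library, and Tnnt3, fast troponin T, 19 to 56 times. The other 7 had between 1 and 43 counts per library. At least 3 counts were present in all 8 thymi for 7 members, and Myog, Actc1 and Myl1 fell below that in 1 or 2 libraries. Divided by exon length so that genes can be compared, Mylpf was at 17.6 ± 2.81 CPM per kilobase (SD, n = 8), which was 78.2% of the sum over the 10 genes. Des followed at 2.55 ± 0.286 and Tnnt3 at 1.03 ± 0.178 CPM per kilobase. The remaining 7 had mean levels from 0.125 to 0.250 CPM per kilobase, and their ranges over libraries overlapped, so their order is not resolved. In bulk tissue, fewer cells of a type and less RNA per cell cannot be told apart.

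**Figure D1:**
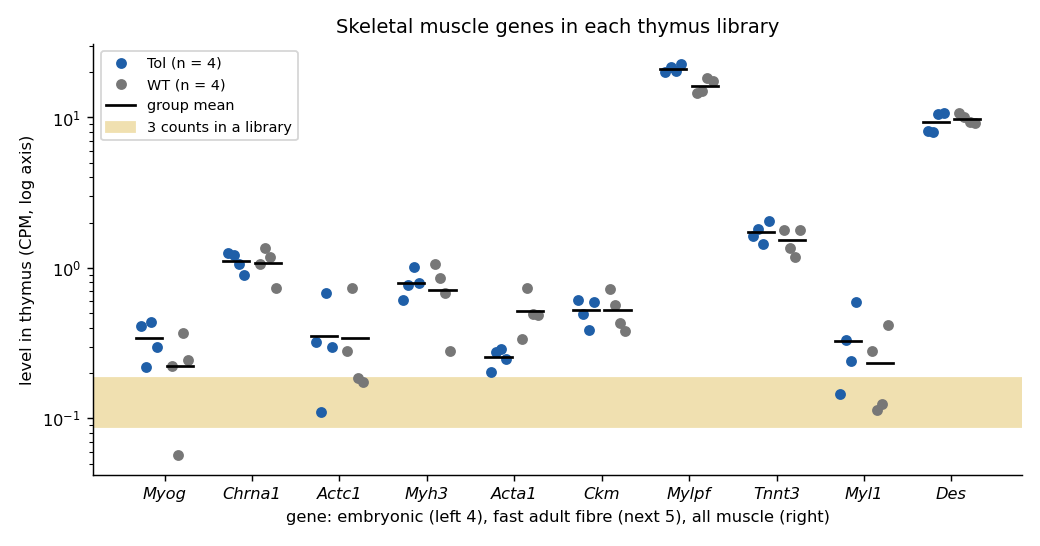
Level of each member in the 8 thymus libraries, in CPM on a log axis, with Tol libraries in blue, WT libraries in grey, bars for group means and a band for the level of 3 counts. Mylpf lay between 14.4 and 22.8 CPM and Des between 8.03 and 10.7 CPM in every thymus, while Myog, Actc1 and Myl1 reached into the band or below it.

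Of the embryonic genes, Myog (ENSMUSG00000026459, chr1:134289989-134292548, plus strand) encodes myogenin, the factor that starts terminal differentiation. It had 14, 4, 9 and 6 counts in Tol thymi 1 to 4 and 4, 1, 6 and 7 in WT thymi 1 to 4. This corresponds to 0.341 ± 0.0999 CPM in Tol and 0.224 ± 0.129 CPM in WT thymi (SD, n = 4 each). The groups overlapped, and the difference on the scale of log2(CPM + 1) was 0.13 (two-sided exact permutation test, p = 0.2). Chrna1 (ENSMUSG00000027107, chr2:73563215-73580338, minus strand) encodes the alpha subunit of the muscle acetylcholine receptor, the main target of antibodies in myasthenia gravis. The fetal and the adult receptor share this subunit, so Chrna1 does not point to embryonic muscle alone. It was at 1.26, 1.21, 1.06 and 0.895 CPM in the Tol and at 1.06, 1.36, 1.18 and 0.730 CPM in the WT thymi. The values interleaved, and the means differed by 0.02 (p = 0.829 in the exact permutation test).

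Actc1 (ENSMUSG00000068614, chr2:114047282-114053548, minus strand), the actin of heart and of developing skeletal muscle, was the most uneven embryonic gene. It had 11, 2, 14 and 6 counts in the Tol and 5, 13, 3 and 5 in the WT thymi. Its highest level, 0.739 CPM in WT 2, and its lowest, 0.110 CPM in Tol 2, lay in different genotypes, and the difference between group means was 0.01 (exact permutation test, p = 0.971). Myh3 (ENSMUSG00000020908, chr11:67078300-67102291, plus strand) is embryonic myosin heavy chain. It had 21, 14, 21 and 16 counts in the Tol and 19, 15, 11 and 8 in the WT thymi, or 0.799 ± 0.166 and 0.718 ± 0.332 CPM (SD, n = 4 each). The groups overlapped and differed by 0.08 (p = 0.714, exact permutation test).

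Of the adult genes, Mylpf (ENSMUSG00000030672, chr7:127208890-127214298, plus strand) differed between the genotypes by the exact test. It was at 20.1, 21.5, 20.2 and 22.8 CPM in Tol thymi 1 to 4 and at 14.4, 15.1, 18.3 and 17.4 CPM in WT thymi 1 to 4. Every Tol thymus was above every WT thymus, and the difference of 0.36 on the scale of log2(CPM + 1) had p = 0.0286, the smallest value that the exact permutation test of 4 against 4 libraries can give. Acta1 (ENSMUSG00000031972, chr8:123891769-123894751, minus strand), the actin of adult skeletal muscle, separated the groups in the opposite direction, from few counts. It had 7, 5, 6 and 5 counts in the Tol and 6, 13, 8 and 14 in the WT thymi, or 0.255 ± 0.0376 and 0.514 ± 0.167 CPM (SD, n = 4 each). In CPM, the highest Tol thymus stayed under the lowest WT thymus. The difference was -0.27, again with the smallest possible p (exact permutation test, p = 0.0286). Its size depended on the pseudocount, which shrinks low genes more than Mylpf. With 0.1 CPM in place of 1 it was -0.76 for Acta1, and edgeR with no filter on low counts gave a log2 fold change of -1.01 ± 0.40 (SE, unadjusted p = 0.0226, adjusted p = 0.214 in edgeR). The p of the exact test became 0.0571 for Acta1 when any 1 of the 4 Tol thymi was left out, and for Mylpf when Tol 2, 3 or 4 was left out. Of read-length windows in Acta1 transcripts, 1.05% also occur in Actb or in 2 other annotated genes, so a few reads could have come from them. Non-overlap was frequent among all genes in thymus, at 11.8% of the 16248 tested, with Tol higher for 5.81% and lower for 5.95%, so 2 of 10 members, of which only Mylpf was among those tested, lay close to that background.

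The other adult genes overlapped between the genotypes. Tnnt3 (ENSMUSG00000061723, chr7:142498836-142516009, plus strand) was at 1.64, 1.82, 1.45 and 2.04 CPM in the Tol and at 1.79, 1.36, 1.18 and 1.77 CPM in the WT thymi (difference 0.12, exact permutation test, p = 0.343). Ckm (ENSMUSG00000030399, chr7:19404776-19422841, plus strand), the muscle creatine kinase that buffers ATP, had 21, 9, 8 and 12 counts in the Tol and 13, 10, 7 and 11 in the WT thymi, and its mean levels of 0.523 and 0.527 CPM were nearly equal (exact permutation test, p = 1). Of its read-length windows, 9.3% also occur in A930016O22Rik, a gene on the other strand, when strand is left out of account. How many of its counts this affects was not tested. Myl1 (ENSMUSG00000061816, chr1:66924295-66945404, minus strand), the alkali light chain of fast myosin, had 5, 6, 5 and 12 counts in the Tol and 5, 2, 2 and 12 in the WT thymi (difference 0.10, exact permutation test, p = 0.486). It shares 9.53% of its windows with the pseudogene Mylf-ps, and its highest library in each genotype had 12 counts.

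Des (ENSMUSG00000026208, chr1:75360329-75368579, plus strand) is made in skeletal, cardiac and smooth muscle, so it does not point to skeletal fibres alone. It was at 8.18, 8.03, 10.5 and 10.7 CPM in the Tol and at 10.7, 10.1, 9.28 and 9.25 CPM in the WT thymi. The genotypes overlapped and differed by -0.07 (p = 0.571, exact permutation test). The smooth muscle myosin Myh11 ranged over 25.8 to 41.1 CPM in Tol thymi and over 30.9 to 48.7 CPM in WT thymi, and a list of 9 smooth muscle genes was at or above 3 counts in full in every thymus. The part of smooth muscle in the level of Des was not tested.

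The fit across all genes gave a narrower view of the same comparison. Of the 10 members, 6 passed edgeR's filter on low counts in thymus (Mylpf, Des, Tnnt3, Chrna1, Ckm and Myh3), and 0 were called at an adjusted p under 0.05 by its quasi-likelihood test, where 0.0985% of the 16248 genes tested were called. At an unadjusted p under 0.05 there was 1 member, Mylpf, against 24.4% of all genes, and DESeq2 called 1 member, again Mylpf, where it called 7.79% of all genes. DESeq2 gave no adjusted p for Myh3, Chrna1, Ckm and Tnnt3, so only Mylpf and Des could be called. Its 7.79% is a share of all 16248 genes, those without an adjusted p included. The log2 fold change of Mylpf was 0.37 ± 0.09 (SE), with an adjusted p of 0.0834 in edgeR. Without Tol 1 it was 0.41 with an adjusted p of 0.0193, in a fit that called 18.2% of all genes, and without any other single library the adjusted p lay between 0.0690 and 0.232. In DESeq2 it was 0.37 with an adjusted p of 0.0158. Removal of the trend of fold change with gene length lowered it to 0.21, with an adjusted p of 0.155 in edgeR.

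For the other members tested, the edgeR log2 fold changes were 0.19 ± 0.37 for Myh3, 0.17 ± 0.21 for Tnnt3, 0.06 ± 0.24 for Chrna1, 0.03 ± 0.30 for Ckm and -0.07 ± 0.12 for Des (SE, n = 4 and 4), and their adjusted p lay between 0.654 and 0.962. The direction of Myh3, Chrna1, Ckm and Des turned when 1 library was left out. The standard errors of the low genes span a large range, so a difference of the size seen for Mylpf would not have been detectable in Myh3, Ckm or Chrna1 at this depth. Over the 6 tested members the median log2 fold change was 0.12, beside 0.01 over all genes. P-values here set the difference between groups against the spread between these libraries.

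Further skeletal muscle genes were read from 5 lists: myogenic and fusion factors, the neuromuscular junction, perinatal and slow contractile genes, adult fast contractile genes, and calcium handling and metabolism of adult fibres. They hold 57 genes, of which 32 passed the filter in thymus. None was called by edgeR. An unadjusted p under 0.05 was found for 5, against 24.4% of all genes, DESeq2 called 2, against 7.79% of all genes, and without Tol 1 edgeR called 4, against 18.2% of all genes. None of these counts was above the share over all genes. Positive log2 fold changes were found for 21 and negative ones for 11, with a median of 0.11. The 5 genes with an unadjusted p under 0.05 are named here after their values were seen, as a description. Colq, which anchors acetylcholinesterase at the neuromuscular junction, ranged over 184 to 197 CPM in Tol thymi and over 145 to 160 CPM in WT thymi (log2 fold change 0.33, adjusted p = 0.0548 in edgeR). Ampd1, the adenosine monophosphate deaminase of muscle, ranged over 10.8 to 12.6 CPM in Tol thymi and over 8.41 to 10.2 CPM in WT thymi (0.37, adjusted p = 0.0862 in edgeR). The slow troponin Tnnt1 (0.44), the receptor-clustering protein Rapsn (0.57) and the embryonic and atrial light chain Myl4 (0.66) had adjusted p of 0.0992, 0.116 and 0.136 in edgeR. The groups did not overlap for any of these 5 genes, which their choice by a low p largely fixes, and 11.8% of all genes did not overlap.

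**Figure D2:**
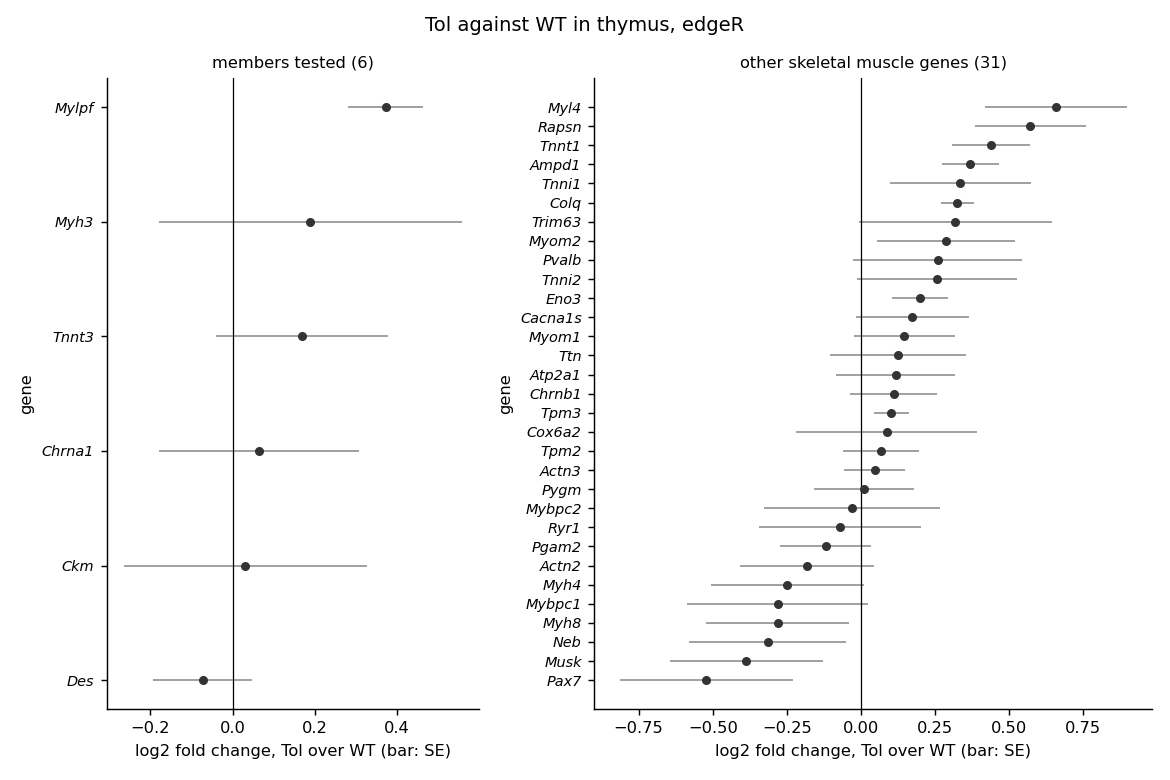
Log2 fold change of Tol over WT in thymus from edgeR's fit, as points with SE bars, for the 6 members tested (left) and 31 of the 32 other skeletal muscle genes tested (right). Mylpf lay farthest from 0 among the members at 0.37, and most bars of the other genes cross or come close to 0.

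Genes of other cell types were read in the same thymi, and edgeR called none of those in the lists of fibroblasts, thymic epithelium, thymocytes and smooth muscle. All 5 fibroblast genes (Col1a1, Col1a2, Col3a1, Dcn and Pdgfra) had negative log2 fold changes in Tol, with a median of -0.57 and an unadjusted p under 0.05, a threshold that 24.4% of all genes passed, and their summed level was 200 to 296 CPM in Tol thymi against 269 to 444 CPM in WT thymi. Of 10 thymic epithelial genes, 9 had positive fold changes, with a median of 0.11 and summed levels of 832 to 944 CPM in Tol thymi against 799.6 to 856 CPM in WT thymi. Aire itself had -0.06 and 22.4 to 31.6 CPM in Tol against 26.2 to 32.0 CPM in WT thymi. The 8 thymocyte genes summed to 9517 to 12000.3 CPM in Tol thymi and to 11660 to 13006 CPM in WT thymi. Smooth muscle genes had negative fold changes for 7 of 8 tested. The part of these cell types in the level of Mylpf was not tested.

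The myogenic factors Myod1 and Myf5 were at or near 0 in thymus, while several contractile genes were detected at low levels. Myod1 had 0 to 2 counts and Myf5 0 to 1 in each of the 8 libraries, so neither reached 3 counts anywhere. Both belong to the list of 9 myogenic and fusion factors, which as a whole was not near 0. Its lowest and highest sums, 21.7 and 24.9 CPM, were both found in Tol thymi. Between 2 and 5 of its 9 genes had at least 3 counts in a given thymus. The same sum was at most 2.51 CPM in WT cerebra but at least 31.8 CPM in WT cerebella. Chrng, the fetal receptor subunit, had 0 to 7 counts. The fast myosin heavy chains Myh1 and Myh4 had 1 to 13 and 17 to 35 counts, and perinatal Myh8 had 12 to 23. Ttn, the giant spring protein of the sarcomere, had 64 to 258 counts. Of the 16 adult fast contractile genes, 12 to 15 had at least 3 counts in each thymus. Per kilobase, Myh4 had 0.175 ± 0.0190 CPM in Tol thymi and 0.212 ± 0.0672 CPM in WT thymi (SD, n = 4 each), far under the 19.9 ± 1.21 and 15.4 ± 1.74 CPM per kilobase of Mylpf in the same libraries. The light chain was thus read without a matching level of a fast heavy chain.

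Heart muscle and brown fat lie near the thymus, and their genes were read beside the members. In thymus Tol 3, Myh6 of the atrium had 23 counts against 0 to 7 in the other thymi, and Ucp1 of brown fat had 76 against 0 to 3. The same library had the highest Actc1 count among all 8 thymi, 14, while WT 2, with 13 Actc1 counts, had 3 of Myh6 and 0 of Ucp1. Cardiac troponin Tnnt2 lay at 2.04 to 2.90 CPM in Tol thymi and at 1.60 to 3.64 CPM in WT thymi. A list of 9 cardiac genes summed to 6.71 to 9.63 CPM in Tol thymi and 5.74 to 8.69 CPM in WT thymi, and 7 adipose genes to 1.49 to 82.0 CPM and 21.6 to 124.7 CPM. The part of such neighbouring tissue in the levels of Actc1 or Des was not tested.

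The balance of embryonic and adult genes was set out per thymus as the sum of CPM per kilobase over each list, with no test, because the lists were chosen with earlier results known. The 4 embryonic genes summed to 0.860, 0.618, 1.12 and 0.719 in Tol thymi 1 to 4 and to 0.738, 0.946, 0.743 and 0.483 in WT thymi 1 to 4. The 5 fast adult genes summed to 20.3, 21.9, 20.4 and 23.4 in the Tol and to 15.3, 15.8, 18.5 and 18.1 in the WT thymi. The sum over the members grouped as adult exceeded that over the members grouped as embryonic in every thymus. The ratio of embryonic to adult lay between 0.0282 and 0.0549 in Tol and between 0.0266 and 0.0600 in WT thymi. No muscle was sampled, so whether the genes grouped as adult are limited to adult fibres could not be checked. The sums therefore do not give the maturity of any muscle-like cell. The mean log2 ratio was -4.73 ± 0.44 in Tol and -4.58 ± 0.50 in WT thymi (SD, n = 4 each), a gap smaller than either spread. The embryonic sum includes Chrna1, which is not limited to embryonic muscle, at a mean of 0.250 CPM per kilobase (n = 8). The balance depended on the genes and on the way they were combined. As a mean of log2 values, in which each gene counts alike, it was -1.68 in Tol and -1.92 in WT thymi, so that the order of the genotypes turned. A different ratio, of the wider perinatal and slow list to the wider adult fast list, was 2.64 in Tol and 2.58 in WT thymi. Its upper list holds genes of slow fibres, such as Myh7 and Tnnt1, and the widely expressed Tpm3. It therefore does not measure the balance of embryonic and adult genes. Mylpf alone made up 88.7% to 93.4% of the adult sum, so the separation of Tol from WT in that sum is the one already given for Mylpf.

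Without Mylpf the 4 remaining adult genes summed to 1.27 to 1.94 CPM per kilobase. The embryonic to adult ratio then lay between 0.273 and 0.827, still under 1 in all 8 thymi, and the mean log2 ratio was -0.97 in Tol and -1.16 in WT thymi. Of this smaller adult sum, Tnnt3 held the greater part in each group by its mean level. The members did not rise and fall together over the 8 thymi. The Pearson correlation of each member with the mean of the other 9, on standardized log2(CPM + 1), ran from -0.57 for Acta1 to 0.57 for Myh3, a description over libraries that differ in depth and genotype.

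**Figure D3:**
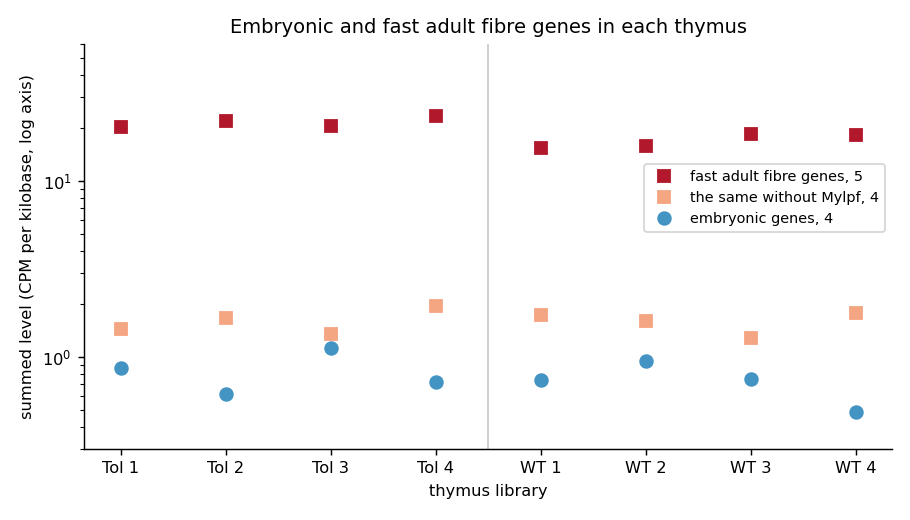
Summed level of the 4 embryonic genes (circles), the 5 fast adult genes (dark squares) and the adult genes without Mylpf (light squares) in each thymus library, in CPM per kilobase on a log axis. Adult sums lay between 15.3 and 23.4, falling to between 1.27 and 1.94 without Mylpf, and embryonic sums between 0.483 and 1.12.

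Against the brain, the 10 genes did not form a thymus-high set. WT thymus was compared with WT cerebrum and WT cerebellum in a fit of the 12 WT libraries. Of 6 members tested in each, 5 were called against cerebrum and 5 against cerebellum, where 84.3% and 83.5% of all 17413 genes were called, so the number of calls itself is near the background and only sizes and directions are described. Higher in thymus were 3 members against cerebrum and 4 against cerebellum (43.4% and 41.8% of all genes), and lower were 2 and 1 (40.9% and 41.7% of all genes). Mylpf and Tnnt3 stood out in thymus. Mylpf was at 16.3 ± 1.84 CPM in WT thymus, 0.327 ± 0.0923 in WT cerebrum and 0.605 ± 0.375 in WT cerebellum (SD, n = 4 each). The log2 fold change was 5.21 ± 0.38 (SE, adjusted p = 3.54e-08 in edgeR) against cerebrum and 4.49 ± 0.35 (adjusted p = 6.63e-08 in edgeR) against cerebellum, and every WT thymus lay above every WT brain library.

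Tnnt3 had 19 to 51 counts in the WT thymi, 3, 0, 0 and 0 in WT cerebra 1 to 4, and 5, 4, 6 and 4 in the WT cerebella. Its fold change against cerebellum was 2.71 ± 0.45 (SE, adjusted p = 9.32e-05 in edgeR). Against cerebrum it was called higher in thymus (adjusted p = 8.21e-06 in edgeR), with the size loosely set because 3 of the 4 cerebra had no count. Des was higher in WT thymus than in WT cerebrum by 2.09 ± 0.17 (SE, adjusted p = 1.08e-07 in edgeR), at 9.83 ± 0.683 against 1.73 ± 0.248 CPM. Against WT cerebellum, at 6.14 ± 1.22 CPM, it was higher by 0.41 ± 0.16 (SE, adjusted p = 0.0279 in edgeR).

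Acta1 and Myh3 showed the opposite order. Acta1 was at 6.77, 9.48, 7.20 and 6.33 CPM in WT cerebra 1 to 4, above all cerebella at 0.678, 0.841, 1.27 and 1.03 CPM, and at 0.335, 0.739, 0.495 and 0.487 CPM in the WT thymi. The log2 fold change of WT thymus was -4.25 ± 0.27 against WT cerebrum (SE, adjusted p = 8.27e-09 in edgeR) and -1.16 ± 0.28 against WT cerebellum (SE, adjusted p = 0.00175 in edgeR). Cerebellum and thymus nevertheless touched, with 1 thymus inside the cerebellar range. Myh3 was at 3.25 ± 0.937 CPM in WT cerebrum, 0.718 ± 0.332 in WT thymus and 0.214 ± 0.169 in WT cerebellum. Its log2 fold change in thymus was -2.62 ± 0.45 against cerebrum (SE, adjusted p = 0.000120 in edgeR) and 1.43 ± 0.53 against cerebellum (SE, adjusted p = 0.0234 in edgeR). Chrna1 did not pass in either comparison, with -0.49 ± 0.30 (SE, adjusted p = 0.153 in edgeR) against cerebrum and 0.60 ± 0.31 (SE, adjusted p = 0.0911 in edgeR) against cerebellum. Without WT thymus 1 or without WT cerebellum 1, 3 members were called against cerebellum, and the adjusted p of Myh3 and Des rose to at most 0.0667 and 0.0696. Without WT thymus 4, Chrna1 was called there with an adjusted p of 0.0380 in edgeR.

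The 4 members that did not pass the filter are given by their levels. Actc1 had 3 to 13 counts in the WT thymi, at most 1 in the WT cerebra and 0 in all WT cerebella. Myog had 1 to 7 counts in the WT thymi, 0 in all WT cerebra and 0, 1, 0 and 3 in the WT cerebella. Ckm was at 0.383 to 0.725 CPM in WT thymus, 0.160 to 0.374 in WT cerebellum and 0.113 to 0.314 in WT cerebrum. The brain regions overlapped. WT thymus lay above both, but only narrowly above cerebellum, with 11 counts in WT thymus 4 beside 10 in WT cerebellum 3. Cerebellum Tol 1, at 0.871 CPM, lay above every thymus. The share of all genes that do not overlap between organs is not given here. Myl1 overlapped in all 3 organs, with means of 0.233, 0.259 and 0.275 CPM in WT thymus, cerebrum and cerebellum.

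**Figure D4:**
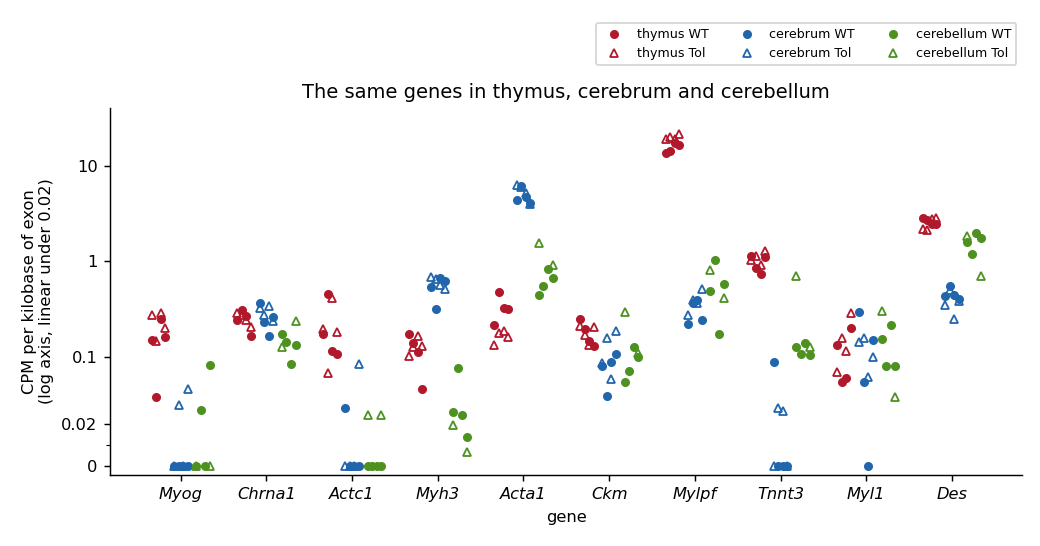
Level of each member in thymus (red), cerebrum (blue) and cerebellum (green), in CPM per kilobase of exon on a log axis that is linear under 0.02, with filled circles for WT and open triangles for Tol libraries. Mylpf, Tnnt3 and Des were highest in thymus, Acta1 and Myh3 in cerebrum, and Chrna1 and Myl1 overlapped between organs.

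The wider muscle lists also held genes called in both directions. Of 40 genes tested, 14 were higher and 17 lower in WT thymus than in WT cerebrum, where 43.4% and 40.9% of all genes were, by edgeR at an adjusted p under 0.05. Against WT cerebellum, 17 were higher and 13 lower, where 41.8% and 41.7% of all genes were, so the counts lay near the background. Ampd1 (8.59 and 7.75), Colq (6.05 and 4.35), Pax7 of muscle stem cells (7.51 and 3.58), the fast-fibre gene Actn3 (3.42 and 3.30) and fast troponin Tnni2 (2.78 and 3.58) were higher in thymus in log2 terms against cerebrum and cerebellum, respectively. Lower in thymus were Pvalb, a calcium buffer of fast fibres and of neurons (-6.26 and -9.09), the junction protein Dok7 (-6.42 and -6.18), the calcium release channel Ryr1 (-4.46 and -5.87), Pygm, muscle glycogen phosphorylase (-3.52 and -4.50), and slow myosin Myh7 (-5.47 and -1.34). Several of these genes are known from neurons or lymphocytes as well as from muscle.

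In cerebrum, Tol and WT libraries overlapped for all 10 members, where 6.5% of all genes did not overlap. Of 4 tested, 0 were called, where edgeR called 0% of 15596 genes, DESeq2 called 0 members, and none had an unadjusted p under 0.05 (9.66% of all genes). The log2 fold changes were 0.18 ± 0.22 for Myh3, -0.31 ± 0.24 for Des, 0.21 ± 0.26 for Chrna1 and 0.16 ± 0.17 for Acta1 (SE, n = 4 and 4). Acta1, lower in the Tol than in the WT thymi, was at 9.77, 9.26, 7.94 and 6.20 CPM in the Tol cerebra, which overlapped the WT range of 6.33 to 9.48 CPM. Whether the genotype difference itself differed between cerebrum and thymus was tested in a fit of these 16 libraries, in which 7 members passed the filter, 0 were called and 0.107% of 17774 genes were called. Acta1 had the lowest p, with a difference of 1.18 ± 0.35 (SE, unadjusted p = 0.00432, adjusted p = 0.136 in edgeR), and was the only member under 0.05 before adjustment, against 16.5% of all genes. Mylpf gave -0.08 ± 0.30 (adjusted p = 0.979 in edgeR), from 5 to 9 counts in each cerebrum.

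In cerebellum the comparison rests on 2 Tol libraries. Tol 2 stood apart over all genes, and Tol 1 in part of the fast-fibre genes. Tol 2 lay outside the range of the other 5 cerebella for 59.9% of the 16662 genes tested, above it for 31.2% and below it for 28.7%. It had 714 counts of Pax7, which marks certain neurons as well as muscle stem cells, against 0 to 3 in the others, 92 of Cdh15 against 612 to 1745, 2871 of Pvalb against 6671 to 11006 and 202 of Ryr1 against 666 to 2205. Its 5 fibroblast genes summed to 300.4 CPM against 96.5 to 139.5 CPM. Of 6 neuron genes, 4 lay below and 2 above the other cerebella. Gabra6 had 318 counts against 7625 to 20662, and Camk2a 13467 against 1628 to 6963. The source of these differences was not tested. Of the 10 members, 2 lay above the other cerebella and 3 below. Chrna1, at 26 counts, lay above their 10 to 19, and Actc1 above from 1 count. Des, at 67, lay below their 108 to 199, as did Myh3, at 1 against 2 to 11, and Myl1, at 2 against 4 to 16. Of 9 perinatal and slow genes, 6 lay above (66.7%, against 31.2% of all genes) and 0 below, with Myh7 at 121 against 5 to 47. Of 16 adult fast genes, 3 lay above and 5 below. The source of this was not tested either. Every comparison of genotypes in cerebellum includes this library unless it is said to be left out. Tol 1 had more fast-fibre message than any other cerebellum. Acta1 had 60 counts there against 17 to 35 in the other 5, Ckm 22 against 4 to 10, Tnnt3 28 against 4 to 6, and Myl1 16 against 2 to 12. These 4 of 10 members lay above all other cerebella in CPM, as did 7 of the 16 adult fast contractile genes (43.8%), against 17.7% of all genes tested. Of those 16662 genes, Tol 1 lay above the other cerebella for 2942, below them for 2722 and within their range for 10998. Among the 7, Myh4 had 24 counts against 0 to 5, Myh1 10 against 0 to 6, Tnni2 11 against 1 to 5 and Tnnc2 12 against 1 to 6. Embryonic members were not raised in that library, with 0 counts of Myog, 1 of Actc1 and 3 of Myh3, and Mylpf, at 22 counts, stayed within the 5 to 26 of the others. The source of this message was not tested.

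Of 5 members tested in cerebellum, 0 were called, where edgeR called 0% of 16662 genes and DESeq2 called 0 members. The single member with an unadjusted p under 0.05 (3.16% of all genes) was Acta1, with a log2 fold change of 0.98 ± 0.37 (SE, adjusted p = 0.957 in edgeR), which fell to 0.54 without Tol 1. Its Tol libraries, at 2.38 and 1.40 CPM, lay above the WT range of 0.678 to 1.27 CPM. Actc1 also did not overlap, from 1 count in each Tol and 0 in each WT cerebellum, which is under the detectable level, and non-overlap was found for 10.8% of all genes, with Tol higher for 6.19%. Myl1 had 0.36 ± 0.84 and turned to -1.74 without Tol 1, and Mylpf had 0.12 ± 0.69 and turned to -0.46 without it. Chrna1 had 0.44 ± 0.43 and Des -0.37 ± 0.41 (SE), and without Tol 2 these turned to -0.08 and 0.15. Mylpf also turned, to -0.18, without WT 3.

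**Figure D5:**
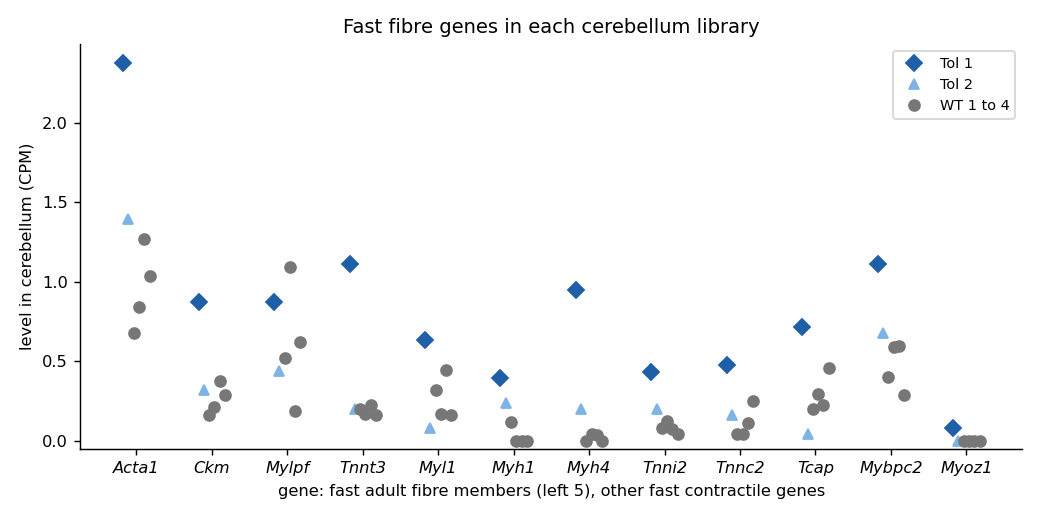
Level in CPM of the 5 fast adult members and of the 7 other fast contractile genes that were highest in Tol 1, chosen for that, in each of the 6 cerebella. Tol 1 (diamonds) was highest for every gene shown except Mylpf, where WT 2 reached 1.09 CPM, and Tol 2 (triangles) lay above the 4 WT libraries (circles) for 5 of the 12 genes, below them for 2 and within their range for 5.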

How the data were processed

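RNA from frozen thymus, cerebrum and cerebellum was sequenced by the authors as stranded, poly(A)-selected libraries with 65-base single-end reads. Reads were assigned by the authors to GRCm38 transcripts, to which they had added Tol, with Salmon 0.14.1. The values they deposited are expected counts, that is, unnormalized estimated counts of each gene given in whole numbers. Salmon divides reads that fit several genes between them, which adds uncertainty to low genes. The submitters' processing notes also name edgeR 3.9. Columns of Tol mice carry the code MRT in the tables and were matched to the Tol samples by their number.

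From the deposited counts, CPM scaled by TMM factors was computed per organ, and CPM per kilobase by division by the union of exons in GENCODE vM21, which held 34530 of the 34585 identifiers. Genotypes and organs were compared in R 4.3.3 with edgeR 4.0.16 (TMM, filterByExpr, quasi-likelihood F test, Benjamini-Hochberg over all genes tested, threshold 0.05), tested on simulated data with 200 changed genes, and members also by two-sided exact permutation tests on log2(CPM + 1). The simulation used the same spread for every comparison and changed only genes with more counts than most members have. It checks that the code runs as meant, not the power for low members or for cerebellum. Start regions came from a RefSeq table of GRCm38.p6. A floor of 3 counts per library covers counting error only. No 2 libraries of a group agreed within sampling noise.

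The members and lists were chosen with earlier results of these data known. Named genes are the 10 members, up to 5 genes of each list with the lowest adjusted p under 0.05 in a comparison, fixed markers (Myod1, Myf5, Myh1, Myh4, Myh8, Chrng, Ttn, Myh6, Tnnt2, Myh11, Aire, Ucp1, Cd3e and Snap25) and the 5 genes most like the members over the thymi. Other genes were named after their values were seen. Alternatives were DESeq2 1.42.0, its size factors, no filter, a minimum of 10 counts in all libraries, robust moderation, removal of a length trend, the replicate number as a block, all 22 libraries in 1 fit, a pseudocount of 0.1 CPM, transcript length, other list scores, and leaving out each library. The adult list without Mylpf was added after seeing the data. Of the list genes, 1 is not reported here by name. Further cerebellum libraries of Tol mice are not analysed here.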

Additional observations from a re-analysis of the deposited data

How the results depend on the processing

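The number of genes called between Tol and WT thymi, 16 in edgeR, was 1266 in DESeq2, 130 with no filter, 85 with at least 10 counts in every library, 38 with robust moderation, 70 with the length trend removed, 29 with all 22 libraries in 1 fit, and 0 to 2978 when 1 library was left out. Members called there were 1 in DESeq2 and 0 to 1 with a library left out, and wider skeletal muscle genes 2 in DESeq2, 1 with no filter, with at least 10 counts, with robust moderation and with the length trend removed, and 0 to 4 with a library left out. Cerebrum gave 184 genes in DESeq2, 25 with all 22 libraries and 0 to 7 with a library left out, and cerebellum 10 in DESeq2 and 0 to 2, with 0 to 1 wider gene. With at least 10 counts in every library, the organ comparisons kept 1 member called in each and 15 and 12 wider genes, because fewer genes were tested, and leaving out a library gave 3 to 6 members against cerebellum. The difference between cerebrum and thymus gave 495 genes in DESeq2, 48 with at least 10 counts, and 2 to 1116 with a library left out. Causes other than that filter were not tested.

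The replicate number was not found to pair the libraries: deviations of same-numbered Tol and WT thymi correlated at -0.11 to 0.05, cerebra at -0.30 to 0.34 and cerebella at -0.18 and 0.62. With the number as a block, 5 genes were called in thymus and 4 in the difference between organs. Mylpf in thymus had an adjusted p of 0.14 in edgeR, Mylpf in cerebellum turned to -0.28, and Des against cerebellum had an adjusted p of 0.0519 in edgeR.

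The mean log2 ratio of embryonic to adult genes, -4.73 in Tol and -4.58 in WT thymi, became -1.68 and -1.92 as a mean of log2 values, and -0.97 and -1.16 without Mylpf. The wider perinatal and slow list over the wider adult fast list gave 2.64 and 2.58. That list holds slow-fibre genes and the widely expressed Tpm3, so this is not the same balance. With a library left out the mean log2 ratio of embryonic to adult members was -4.91 to -4.59 in Tol and -4.75 to -4.36 in WT thymi. The fold change of Ckm in thymus turned to -0.0246 with the length trend removed, its difference to 0.00541 with a pseudocount of 0.1 CPM, and Mylpf between organs to 0.0335 with the length trend removed. With a library left out, the differences of log2(CPM + 1) in thymus ran from 0.31 to 0.42 for Mylpf and from -0.32 to -0.20 for Acta1, with p of 0.0286 to 0.0571 for both (exact permutation test, 0.0286 being the smallest possible), and from -0.0977 to 0.14 for Actc1, -0.0474 to 0.0591 for Ckm, -0.0512 to 0.18 for Myh3 and -0.0636 to 0.0864 for Chrna1. The log2 fold changes in thymus ran from -0.13 to 0.46 for Myh3, -0.14 to 0.000694 for Des, -0.11 to 0.20 for Chrna1 and -0.13 to 0.22 for Ckm. Those in cerebrum ran from -0.00529 to 0.29 for Myh3, and those in cerebellum from -1.20 to 0.15 for Des, -0.0820 to 0.82 for Chrna1, -0.46 to 0.54 for Mylpf and -1.74 to 1.18 for Myl1. The differences between cerebrum and thymus ran from -0.28 to 0.30 for Myh3, -0.00548 to 0.39 for Chrna1, -0.21 to 0.0699 for Mylpf and -1.21 to 2.35 for Tnnt3.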

Other observations

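The 5 genes whose levels over the 8 thymi were most like the mean of the standardized members were the adult beta globin gene Hbb-bs (Pearson r = 0.965), the synaptic vesicle gene Syp (0.955), Ptprn of neuroendocrine secretory granules (0.948), Hyi (0.944) and A630076J17Rik (0.944). These were picked as the highest of all genes tested, no test was made, and the libraries share differences in depth. Hbb-bs ran from 53.3 to 133.8 CPM over the thymi and Syp from 1.43 to 3.08 CPM.

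Of the 48 groups of 4 libraries in which a member had differing values, 0 were flagged by Dixon's test as run, where 2.4 would be reached by chance at 1 in 20. Groups in which 1 library alone had counts, of at most 3, were not flagged, although that library stands apart. Tnnt3 in WT cerebra 1 to 4, with 3, 0, 0 and 0 counts, was 1 of them. The 0 therefore does not cover such groups.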
